A study of Gallus gallus with 2 samples.

Results

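The haemoglobin genes of chicken embryo hearts were compared between embryos exposed to an oxidant and embryos given saline. The genes were taken as the names HBG1, HBG2, HBE, HBE1 and HBZ in the deposited tables, which gave 5 of 13011 named genes and 6 of 27335 transcripts. HBZ had 2 transcripts and each of the other genes had 1. Hearts of Gallus gallus embryos were collected on day 11 (Hamburger-Hamilton stage 37) from eggs kept at 38 °C and 70% humidity. The control library, written "with saline" beside values, came from embryos that received saline. The AAPH library, written "with AAPH", came from embryos that received 2,2-azobis(2-amidinopropane) dihydrochloride, or AAPH, which breaks down into free radicals. AAPH was injected into the air chamber as 2.6 µmol in 100 µL from stage 35, on alternate days up to day 10, and only surviving embryos were sampled. The labels give neither a strain, a genotype, the sex of the embryos nor how many hearts went into a library. Each group has 1 library, so no difference below has a replicate error or a test.

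Haemoglobin is a tetramer of alpha-type and beta-type globin chains, each holding a haem group that binds oxygen. Birds exchange chains during development. The first red cells, made in the yolk sac (the primitive lineage), carry the embryonic beta-type chains. The definitive red cells that follow carry the adult beta-type chain. Avian red cells keep their nucleus, and red cells are present in the blood inside a heart and its vessels. The names in the tables follow human genes and do not show these roles. In the RefSeq gene table (assembly GRCg7b), HBG2 is another name of HBBA, the beta-A chain of adult haemoglobin, and HBG1 is another name of HBBR, the embryonic rho chain. HBE1 is also called HBBH, the beta-H or hatching chain, and HBE is also called HBBE, the embryonic epsilon chain. HBZ is also called HBAP, the embryonic alpha-type pi chain. HBG1, HBE1, HBG2 and HBE follow one another in the tables, and the gene table has these 4 beta-type genes side by side on one chromosome. It has HBZ on another chromosome beside the adult alpha-type genes HBAD and HBA1, for which no value was obtained under any name the gene table gives them. The values below therefore cover the beta-type chains and the embryonic alpha-type chain, not all haemoglobin.

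All 5 haemoglobin genes had lower values in the AAPH library, and the beta-A chain differed least. The beta-H, rho, epsilon and pi chains were at 43.1% to 51.0% of their control level, and the beta-A chain was at 74.8%. Levels are in FPKM, a fragment density scaled for the length of the transcript and the size of the library, so that genes can be compared with each other. The log2 ratio is log2((AAPH FPKM + 1)/(control FPKM + 1)), and a gene was called lower or higher at 2-fold or at 1.5-fold. At 2-fold, 3 of the 5 genes (HBG1, HBE and HBZ) were lower, against 0.782% of the 10106 genes with a mean of 1 FPKM or more. At 1.5-fold, 4 of the 5 were lower (HBE1 in addition), against 3.93% of all genes tested. The median log2 ratio was −1.0 over the 5 genes and 0.0039 over all genes tested.

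HBG2, the beta-A chain, had the highest level of the 5 in each library. It was at 2267 FPKM with saline and 1695 FPKM with AAPH, a log2 ratio of −0.42. It did not pass 1.5-fold. Highly abundant genes as a whole had ratios below 0: the 92 genes whose mean level was within 2-fold of that of HBG2 had a median log2 ratio of −0.48, and 56 of them were at or below HBG2. The ratio of HBG2 was thus near the middle of genes at its level.

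HBE1, the beta-H chain, had the next level. It was at 965 FPKM with saline and 492 FPKM with AAPH, a log2 ratio of −0.97, which passed 1.5-fold and fell just short of 2-fold. Of the 131 genes within 2-fold of its mean level, whose median log2 ratio was −0.26, 1 was at or below HBE1. In the order of levels among named genes it was gene 130 with saline and gene 170 with AAPH.

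The embryonic beta-type chains were well below these. HBG1, the rho chain, was at 108 FPKM with saline and 46.5 FPKM with AAPH, a log2 ratio of −1.20 and the lowest of the 5. Of 1264 genes within 2-fold of its mean level, 3 were at or below it. HBE, the epsilon chain, was at 64.2 FPKM with saline and 30.8 FPKM with AAPH, a log2 ratio of −1.03. Of 2001 genes at its level, 12 were at or below it. The rho and epsilon chains are close copies, so that reads can be shared between them and the value of each is uncertain. Their sum was less exposed to this, at 172 FPKM with saline and 77.3 FPKM with AAPH, or 45.0% of control. Within that sum rho held 62.7% with saline and 60.1% with AAPH. Sharing of reads among the other chains, such as beta-A and beta-H, was not tested.

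HBZ, the embryonic alpha-type pi chain, had the lowest level. Its summed transcripts were at 23.4 FPKM with saline and 11.2 FPKM with AAPH, a log2 ratio of −1.0, only just past 2-fold. Of 3692 genes at its level, 23 were at or below it. Of its 2 transcripts the smaller was at 7.57 FPKM with saline and 2.44 FPKM with AAPH, or 32.3% of control. The larger was at 15.8 FPKM with saline and 8.74 FPKM with AAPH, or 55.3% of control and a log2 ratio of −0.79. Both were thus lower in the AAPH library, and the share of the smaller in HBZ was 32.4% with saline and 21.9% with AAPH. The log2 ratios of the pair differed by 0.53. Among 775 genes with 2 transcripts, each with a mean of at least 5 FPKM over the libraries, the median difference was 0.52. The split between the HBZ transcripts was thus of a common size, though the smaller one was close to that limit. RefSeq lists 1 transcript for HBZ.

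**Figure D1:**
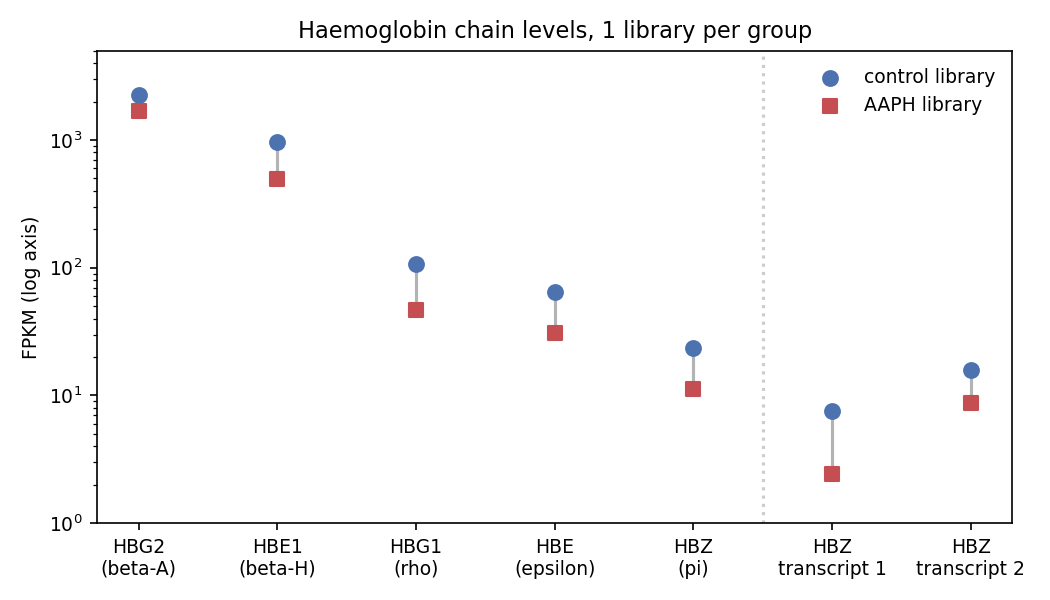
FPKM of each haemoglobin gene (log axis) in the control library (circles) and the AAPH library (squares), with the 2 HBZ transcripts on the right. Each gene had the lower value in the AAPH library, and the order from HBG2 (2267 and 1695 FPKM) to HBZ (23.4 and 11.2 FPKM) was the same in both.

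**Figure D2:**
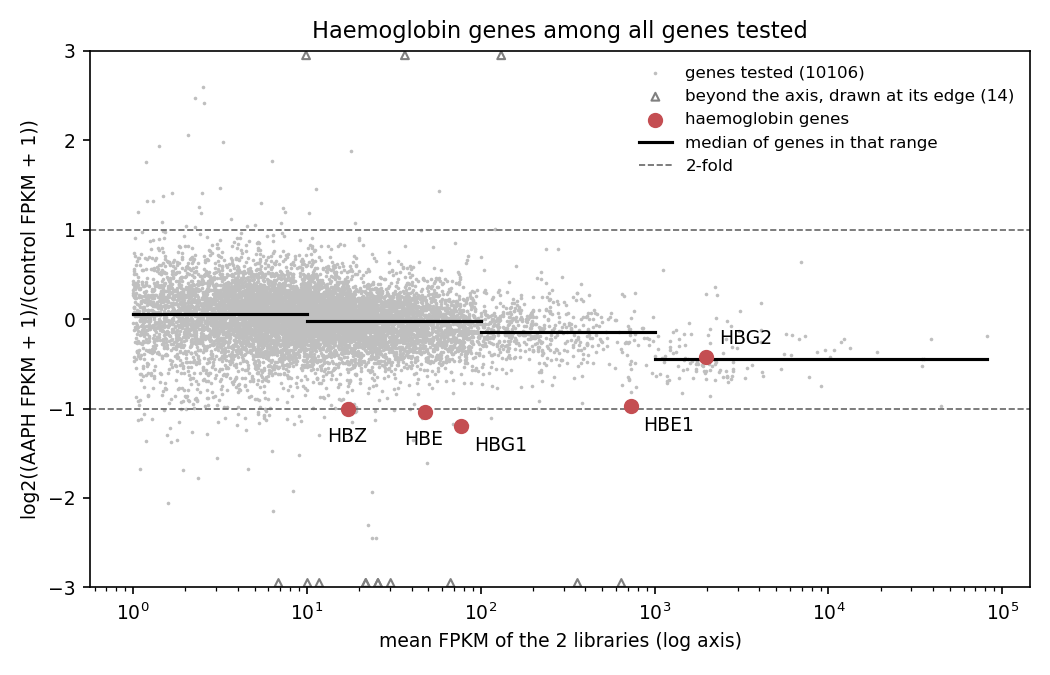
Log2 ratio of each of 10106 genes against its mean FPKM (log axis); black lines give the median of genes from 1 to 10, 10 to 100, 100 to 1000 and above 1000 FPKM, and triangles mark 14 genes beyond the axis. HBE1, HBG1, HBE and HBZ (red) are at the lower edge of genes of their level, while HBG2 is on the line of its range.

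The order of the levels was the same in the 2 libraries, with HBG2 first, then HBE1, HBG1, HBE and HBZ. With 1 library each, it cannot be said which neighbours in this order differ beyond their spread. The steps between neighbours were 2.35-fold from HBG2 to HBE1 with saline and 3.44-fold with AAPH. HBG2 was 21.0 times HBG1 with saline and 36.5 times HBG1 with AAPH. Against HBZ the factor was 97.0 and 152.

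The make-up of the haemoglobin sum, which does not depend on how the libraries are scaled, differed between the libraries. The 5 genes summed to 3427 FPKM with saline and 2275 FPKM with AAPH, a log2 ratio of −0.59, or 0.275% and 0.218% of all FPKM. HBG2 held 66.1% of this sum with saline and 74.5% with AAPH. HBE1 held 28.2% with saline and 21.6% with AAPH. HBG1 held 3.14% and 2.04%, HBE 1.87% and 1.35%, and HBZ 0.682% and 0.491%, in the same order. The share of beta-A was thus 8.34 percentage points greater in the AAPH library, and each of the other shares was smaller. FPKM gives no count of fragments, so no counting interval can be set on these shares.

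The other 4 chains kept nearly the same proportions to each other. Their sum was 1160 FPKM with saline and 581 FPKM with AAPH, and its log2 ratio was −1.0. For every 100 FPKM of HBE1 there were 11.2 FPKM of HBG1 with saline and 9.44 with AAPH. For HBE the amounts were 6.65 and 6.26, and for HBZ 2.42 and 2.27. Set against HBG2 instead, the amounts per 100 FPKM were 42.6 and 29.0 for HBE1, 4.75 and 2.74 for HBG1, 2.83 and 1.82 for HBE, and 1.03 and 0.660 for HBZ. The difference between the libraries was therefore mostly between beta-A and the other chains, and among those rho differed from beta-H the most. With HBG2 left out of the sum, HBE1 held 83.2% with saline and 84.8% with AAPH, so its share was then the greater in the AAPH library.

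**Figure D3:**
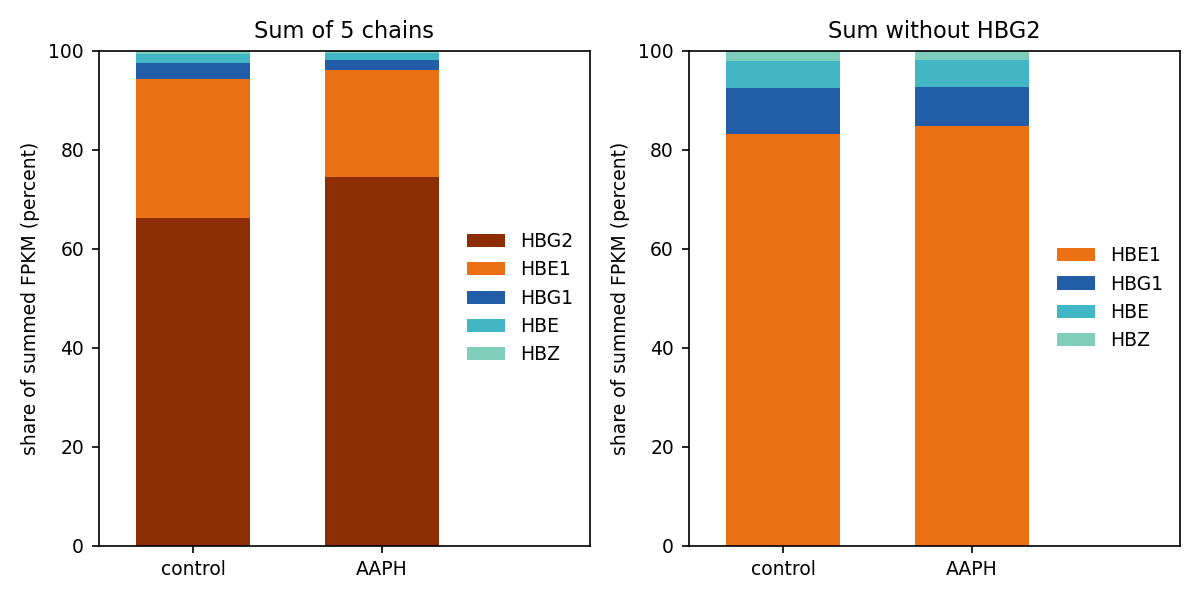
Stacked bars of the share of each chain (percent) in the FPKM summed over the 5 haemoglobin genes (left) and over the 4 genes without HBG2 (right), 1 bar per library. HBG2 takes 66.1% of the control bar and 74.5% of the AAPH bar on the left; on the right the bars differ by 1.60 percentage points or less for each chain.

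The value of HBG2 carries a limit of the deposited assembly. Its transcript was assigned to a locus that also holds 3 transcripts named TRIM3, a ubiquitin ligase gene. TRIM3 and HBG2 are separated by 14 protein-coding genes in the gene table. One of these TRIM3 transcripts was at 6269 FPKM with saline and 4769 FPKM with AAPH. It was entry 29 of 27335 in the control library by level, above HBG2 at entry 69. The 3 TRIM3 transcripts together were at 76.1% of control, close to the 74.8% of HBG2, and HBG2 made up 26.4% of the locus with saline and 26.1% with AAPH. Loci with transcripts of more than 1 name numbered 226 of 14677, where the lack of a name was counted as a name. The tables hold no positions, so whether these reads belong to beta-A was not tested. Counted with HBG2, the TRIM3 transcripts brought its share to 88.1% with saline and 91.8% with AAPH, and the haemoglobin sum to 9735 and 7075 FPKM. The share of beta-A was then greater by 3.71 points and the log2 ratio of the sum was −0.46, within 1.5-fold.

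Other genes of red cells had ratios nearer to 0 than the beta-H, rho, epsilon and pi chains. Of 29 genes of the red-cell membrane, skeleton and enzymes, 18 had a name in the tables and 17 were tested. At 1.5-fold 0 were lower and 1 was higher, where 3.93% of all genes were lower and 2.73% higher, and the median log2 ratio was −0.03. The 1 higher gene was TMOD1, which caps actin filaments in red cells and also in heart muscle, at 204 FPKM with saline and 352 FPKM with AAPH. Without it, the 16 others summed to 749 FPKM with saline and 681 FPKM with AAPH, or 90.9% of control. That lower sum rests on TSPO2, which was at 373 FPKM with saline and 304 FPKM with AAPH. The median log2 ratio of the 16 was −0.07. Each of the 16 was between 68.5% and 126% of control, so all were above the 4 chains of 51.0% or less. HBG2, the beta-A chain, was within that range, at 74.8% of control.

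Of the 17 genes of this list, 9 had log2 ratios below 0 and 8 above. Those below 0 included TSPO2, an erythroid membrane protein with the highest level of the list, at 373 FPKM with saline and 304 FPKM with AAPH. RHCE, of the Rh blood group family and named RHD in the tables, had the lowest ratio of the list, at 21.9 and 15.0 FPKM. EPB42, a protein of the red-cell skeleton, was at 22.5 and 17.1 FPKM. The spectrin SPTB, found in red cells and in muscle, was at 36.8 and 30.7 FPKM, the skeletal protein ADD2 at 7.33 and 5.72 FPKM, and the blood group protein KEL at 8.85 and 8.04 FPKM. BPGM, EPB41 and TMCC2 were also below 0, at 90.4% to 97.6% of control; these 3 and KEL were above 0 after rescaling to TPM. Above 0 were RHAG, the membrane partner of RHCE, at 10.3 and 11.3 FPKM, and HEMGN, a nuclear protein of blood-forming cells, at 10.2 and 11.3 FPKM. GYPC, a membrane glycoprotein, was at 80.9 and 86.0 FPKM, and AQP1, FECH, STOM and CA2 were at 108% to 126% of control. All of these but TSPO2 and TMOD1 were named after their values were seen. In a bulk heart sample, fewer red cells and less RNA per red cell cannot be told apart, and neither can primitive and definitive red cells.

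Tested regulators of erythroid genes were likewise close in the 2 libraries by their median. Which heart cells their RNA came from was not tested. Of 22 transcription factors of red cells and globin switching, 19 had a name and 15 were tested. At 1.5-fold 0 were lower and 1 was higher, with a median log2 ratio of 0.05. Over all genes tested, 3.93% were lower and 2.73% higher, so counts this small say little about the list. The higher gene was NR2C1 (TR2), part of a repressor complex on embryonic globin genes in mammals, at 4.31 FPKM with saline and 7.20 FPKM with AAPH. Its partner NR2C2 was at 5.12 and 5.35 FPKM. BCL11A, a repressor of fetal globin in humans, was at 5.02 and 5.23 FPKM, and ZBTB7A, another such repressor, at 9.96 and 7.35 FPKM. TAL1, which works with GATA1 in red-cell precursors and is named SCL in the tables, was at 16.7 and 19.1 FPKM. NR2C2, BCL11A, ZBTB7A and TAL1 were chosen for naming after their values were seen. ZFPM1, a partner of GATA1 and the highest of the list, was at 40.1 and 39.8 FPKM. GATA1, KLF1 and NFE2 have no value here. The 4 with a mean below 1 FPKM were MYB, SOX6 and KLF13, which had the higher value with AAPH, and RUNX1, which had the lower. Of 11 genes of signalling through the erythropoietin and KIT receptors, 7 were tested and 0 passed 1.5-fold, with a median of 0.18. Erythropoietin (EPO), its receptor EPOR, STAT5A and STAT5B have no value here. JAK2, the kinase of the erythropoietin receptor, was at 2.22 and 3.32 FPKM. LYN, another kinase, was at 6.12 and 7.19 FPKM, and CISH, a feedback inhibitor and the highest of that list, at 43.1 and 48.9 FPKM.

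Genes that make haem and supply its iron had ratios on both sides of 0. Of 17 genes, 13 were tested, of which 1 was higher and 1 lower at 1.5-fold, with a median log2 ratio of 0.07. Over all genes tested, 2.73% were higher and 3.93% lower. The transferrin receptor TFRC, which brings iron into red-cell precursors and other growing cells, was at 66.3 FPKM with saline and 38.6 FPKM with AAPH, a log2 ratio of −0.77. UROS, an enzyme of haem synthesis, was at 8.16 and 12.8 FPKM (0.59). SLC25A37, a mitochondrial iron carrier named after its value was seen, fell just short of 1.5-fold, at 7.09 and 11.1 FPKM (0.58). GLRX5, of iron-sulphur cluster assembly, had the highest level of this list, at 85.2 and 75.5 FPKM. ALAS2, the erythroid form of the first enzyme, has no value here. Among 8 tested genes of haem and haemoglobin breakdown, 1 was lower and 0 higher, with a median of −0.21. The lower gene was the ferritin heavy chain FTH1, an iron store found in most cells, at 4032 and 2552 FPKM. Of the 122 genes with a mean of 1000 FPKM or more, 27 were lower at 1.5-fold, with a median log2 ratio of −0.45.

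Globins outside the haemoglobin family were tested for MB and CYGB. MB, myoglobin, the oxygen store of heart muscle, was at 1432 FPKM with saline and 919 FPKM with AAPH, a log2 ratio of −0.64. Genes with a mean of 1000 FPKM or more, MB among them, had a median log2 ratio of −0.45. CYGB, cytoglobin, found in fibroblast-like cells, was at 27.7 and 25.1 FPKM (−0.13). The sum of the 5 haemoglobin genes was 2.39 times myoglobin with saline and 2.48 times with AAPH, nearly the same proportion. That sum lacks the adult alpha-type chains. With the TRIM3 transcripts of the HBG2 locus it was 9735 FPKM with saline and 7075 FPKM with AAPH, so the proportion depends on what is counted.

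The libraries had the heart muscle genes that the label names, and the lists of other blood and vessel cells had medians nearer to 0 than the haemoglobin genes. At 1.5-fold, 3.93% of all genes tested were lower and 2.73% higher, so counts of 0 or 1 in lists this short say little. Of 20 cardiomyocyte genes 15 were tested, led by MYL2, the ventricular light chain, at 13293 FPKM with saline and 11427 FPKM with AAPH. Their median was −0.18, with 1 lower and 0 higher; the lower gene was MYH7, a myosin heavy chain, at 215 and 127 FPKM. Of 6 tested leukocyte genes 1 was lower and 0 higher (median 0.14); the lower gene was CTSS, a lysosomal protease, at 12.8 and 6.64 FPKM, and LAPTM5, the highest, was at 11.8 and 13.5 FPKM. The 5 leukocyte genes with a mean below 1 FPKM (PTPRC, CD3E, CD8A, CYBB and CSF3R) all had the lower value with AAPH, and with them the median was −0.23. Of 5 tested thrombocyte genes 0 passed 1.5-fold (median −0.16). TUBB1, the beta-tubulin of these cells, was at 22.6 and 20.2 FPKM, GP1BB at 3.76 and 3.03 FPKM, and F13A1 was at 68.3% of control. Of 13 tested endothelial genes 0 passed it (median 0.02). CDH5, the adhesion protein of vessel walls, was at 47.5 and 57.9 FPKM, TIE1 at 19.9 and 25.6 FPKM, and EGFL7 at 39.1 and 27.9 FPKM. The tested genes summed to 93.7% of control for leukocytes, 89.7% for thrombocytes, 97.0% for endothelium and 88.4% for cardiomyocytes. Such sums are led by the genes of highest level. The leukocyte sum was below control because of CTSS, while 4 of the 6 tested leukocyte genes had ratios above 0. The part of these cells in the haemoglobin values was not tested.

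**Figure D4:**
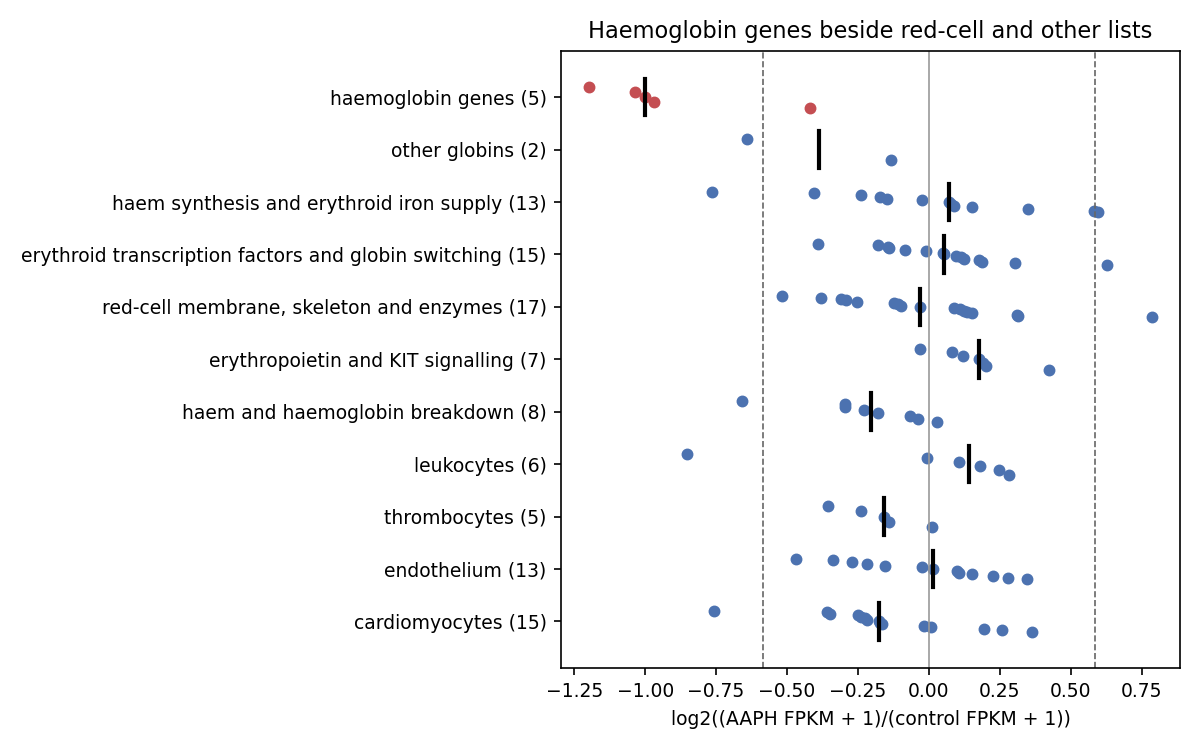
Log2 ratio of each tested gene in the haemoglobin family (red) and in 10 lists (blue), with the number of genes in brackets, medians as black bars and 1.5-fold as dashed lines. HBG1, HBE, HBZ and HBE1 are left of every tested gene of the 10 lists, of which CTSS is the lowest.

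The scaling of the libraries bears on every ratio to control above. The FPKM of all transcripts summed with AAPH to 83.5% of the sum with saline. When each library was rescaled to the same sum (TPM), the median of all genes moved up by 0.23. The 5 haemoglobin genes then had log2 ratios from −0.94 for HBG1 to −0.16 for HBG2, so 0 were lower at 2-fold and the same 4 at 1.5-fold, against 0.356% and 1.6% of all genes on that scale. The sum of the 5 was at −0.33, within 1.5-fold. The medians of the red-cell, haem breakdown, thrombocyte and cardiomyocyte lists moved from below to above 0. TFRC, FTH1, MB and MYH7 came within 1.5-fold, CTSS stayed lower, and SLC25A37 (the mitochondrial iron carrier mitoferrin), JAK2, TIE1 and the natriuretic peptide gene NPPB became higher at 1.5-fold, as were 8.4% of all genes on that scale. There too, 0 of the tested genes in the 10 lists were below HBE1.

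By nearness of the log2 ratio to the median of the 5 haemoglobin genes, over 2894 genes with a symbol and a mean of 20 FPKM or more, the 6 nearest were TNNC2, MTG1, EXOG, RPS21, PPDPF and U3. TNNC2, the fast skeletal troponin C, was at 129 FPKM with saline and 64.2 FPKM with AAPH (−0.99). MTG1, a mitochondrial GTPase, had a log2 ratio of −1.02, and U3, a small nucleolar RNA and the farthest of the 6, one of −0.91. With 2 libraries, a pattern is a single ratio, so this likeness is a weak one.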

How the data were processed

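RNA-seq was measured in 2 libraries of chicken embryo hearts, grouped by the labels' chemical entry. Per the file headers, the authors deposited FPKM for each assembled transcript. The submitters' processing notes name TopHat2 2.1.1, Cufflinks 2.2.1, Cuffdiff and bcl2fastq. The build is not given in the sources used here, nor is the annotation. FPKM keeps no depth, so the depth and counting error of each value are unknown. Transcripts without a name (1968) were left out of gene values.

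FPKM of transcripts with the same name was summed. Log2 ratios used a pseudocount of 1 FPKM, which understates changes of low genes, and counts over genes a mean of 1 FPKM or more. With 1 library per group no test was made. The haemoglobin genes and the 10 lists were chosen with earlier results of these data known. List symbols were matched exactly, and 5 through another name. Named list genes were those past 1.5-fold, the highest of each list and, where none passed, the 2 with the largest ratio; others were named after their values were seen, as marked. Names and neighbours came from a RefSeq gene table (GRCg7b), whose coordinates were used only to order the genes along each chromosome. Only the 2-fold call was tried on simulated data, with larger changes, an assumed depth and no variation between embryos. The error rate of the calls here is therefore unknown. Python 3.11.15, numpy 2.4.6, pandas 2.3.3 and matplotlib 3.10.9 were used.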

Additional observations from a re-analysis of the deposited data

How the results depend on the processing

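The log2 ratios of HBG2, HBE1, HBG1, HBE and HBZ kept their sign and their side of 1.5-fold under the following settings. These were a pseudocount of 0.1, rescaling to TPM, centring by the median of ratios, and the highest transcript of each gene alone. A further setting was rescaling to the sum of all but haemoglobin genes and the mitochondrial-genome protein genes matched by name (12 of 13). At 2-fold, 3 of the 5 were lower as deposited, 0 after either rescaling, and 2 with the highest transcript alone, where HBZ was at −0.79. The log2 ratio of the haemoglobin sum came within 1.5-fold after rescaling to TPM (−0.33), after the other rescaling (−0.35) and with the TRIM3 transcripts of the HBG2 locus (−0.46), an alternative chosen after seeing the data.

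Differences in share, AAPH minus control, depended on what was summed. With the TRIM3 transcripts they were 3.71 points for HBG2, −2.96 for HBE1, −0.45 for HBG1, −0.22 for HBE and −0.082 for HBZ. Without HBG2 the difference of HBE1 turned to 1.60 points, since HBG2 no longer took part in the sum, and those of HBE and HBZ were −0.22 and −0.089. With the highest transcript of each gene alone, that of HBZ was −0.078 points.

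Counts over all genes moved with several settings. With a pseudocount of 0.1, 162 genes were lower and 106 higher at 2-fold, and 505 higher at 1.5-fold. After rescaling to TPM, 36 were lower and 80 higher at 2-fold, and 162 and 849 at 1.5-fold. Without haemoglobin and the matched mitochondrial-genome protein genes in the scaling, these were 43, 96, 185 and 862. With a mean of 5 FPKM or more, so with fewer genes, they were 52, 14, 246 and 134, against 79, 36, 397 and 276. No list median passed 1.5-fold under any setting. Without a filter the leukocyte median turned from 0.14 to −0.23. At 5 FPKM or more the red-cell median was 0.03 in place of −0.03 and the endothelial median −0.0039 in place of 0.02. A sum with adult alpha-type chains found through Ensembl identifiers was not run, because the gene table used here holds none. No paired analysis was possible because each group has 1 library. With the depth unknown, no counting error could be set on any value.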
